A study of Homo sapiens with 24 samples.

Results

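The genes described here are 36 human genes of sterol and fatty acid synthesis, with the factors that control them and the carriers that move sterol. They were found by symbol in both count tables. All 36 had 1 row in each table, of 60671 genes in all. They fall into 5 roles by their place in the pathway: 8 genes of the mevalonate steps, from acetyl-CoA to squalene; 10 genes of the steps from squalene to cholesterol; 5 genes that control SREBP; 5 genes of sterol transport or of the response to the sterol-sensing LXR receptors; and 8 genes of fatty acid and lipid synthesis.

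RNA was measured in 24 libraries, 3 in each of 8 groups, from H1 and H9, 2 established lines of human embryonic stem cells. In H1, the knockdown cells were primed stem cells with knockdown of CARHSP1, naive stem cells with knockdown of ZNF8, and cells at day 2 of ectoderm differentiation with knockdown of ZIC2. Each had its own nontargeting (NT) control in the same state, and doxycycline was given to all H1 groups, controls included. In H9, naive cells stood beside primed cells, with no genotype or treatment stated. Primed cells resemble the embryo after implantation and naive cells the embryo before it. CARHSP1 is a cold shock domain protein that binds RNA, and ZNF8 and ZIC2 are zinc finger proteins. StemFlex medium is the one named for every library. The labels do not say whether the 3 libraries of a group came from separate cultures, so the p-values measure the spread between these libraries, which may be technical.

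Cells make cholesterol from acetyl-CoA through mevalonate, squalene and lanosterol. When membrane sterol falls, the escort protein SCAP carries the SREBP factors, encoded by SREBF1 and SREBF2, out of the endoplasmic reticulum, and the cut factors then switch on the synthesis genes; INSIG proteins hold SCAP back when sterol is plentiful, and INSIG1 is itself an SREBP target. SREBF2 acts mainly on sterol genes and SREBF1 mainly on fatty acid genes, while LXR receptors respond to excess sterol by switching on exporters such as ABCA1.

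Libraries held 6756704 to 20773963 counts in genes, and 1.68% to 7.54% of them were mitochondrially encoded. The CARHSP1 transcript was at 20.8, 18.2 and 18.5 counts per 1000000 (CPM) in CARHSP1 knockdown libraries, against 152, 148 and 148 CPM in NT primed libraries. ZIC2 was at 267, 264 and 272 CPM in ZIC2 knockdown libraries, against 620.1, 550.2 and 497 CPM in NT ectoderm libraries. ZNF8 was at 15.5, 15.7 and 17.8 CPM in ZNF8 knockdown libraries and at 23.5, 18.8 and 17.8 CPM in NT naive libraries, a log2 change of -0.32 ± 0.13 (SE) that missed the threshold (edgeR adjusted p = 0.0664); in every comparison below, the ZNF8 group is thus set by its label. The naive marker KLF17 averaged 10.8 CPM in NT naive H1 cells but 0.068 CPM in the cells labelled naive H9 (0, 0.11 and 0.0941 CPM), while the naive marker NLRP7 averaged 153 CPM in naive H9 against 2.38 CPM in primed H9. The ectoderm cells held SIX3 but little PAX6 (2.25 CPM on average in NT ectoderm) and kept POU5F1 at 444 CPM. Markers of liver and fat cells, which run these pathways at a high level, summed to at most 9.62 CPM in any library. In such bulk RNA, fewer cells of one type and less RNA per cell cannot be told apart.

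Matches to the classical control elements of the pathway were counted in promoters of these genes, and not every promoter held each element. Windows of 250 bases before to 50 bases after the transcription start, from RefSeq on GRCh38.p14, were found for 31 of the 36 genes and searched on both strands. No usable window was found for ACAT2, FDFT1, SQLE, ABCG1 and FASN. For genes with more than 1 window, such as HMGCS1 with 2, only the first listed was used. The IDI1 window, chr10:1056655-1056954, lies outside the span of that gene in GENCODE 29, 1039152 to 1049170. A sterol response element spelled TCACNCCA was in 3 of 31 windows (9.68%), those of MSMO1, MVK and SREBF2, beside 3.93% of all 27305 windows. The NF-Y box CCAAT was in 18 of 31 (58.1%, beside 35.7% of all windows), the SP1 box GGGCGG in 29 of 31 (93.5%, beside 44.6%) and the E-box CACGTG in 5 of 31 (16.1%, beside 7.43%); none of these motifs contains another. Printed below, 5′ to 3′ on the gene's own strand, are the windows of the 3 genes with a sterol response element and of INSIG1 and HMGCS1, with TCACNCCA and CCAAT, on either strand, in capitals. They lie at chr4:165327419-165327718 for MSMO1, chr12:109573544-109573843 for MVK, chr22:41832855-41833154 for SREBF2 and chr7:155297628-155297927 for INSIG1, all on the plus strand, and at chr5:43313363-43313662 on the minus strand for HMGCS1.
MSMO1: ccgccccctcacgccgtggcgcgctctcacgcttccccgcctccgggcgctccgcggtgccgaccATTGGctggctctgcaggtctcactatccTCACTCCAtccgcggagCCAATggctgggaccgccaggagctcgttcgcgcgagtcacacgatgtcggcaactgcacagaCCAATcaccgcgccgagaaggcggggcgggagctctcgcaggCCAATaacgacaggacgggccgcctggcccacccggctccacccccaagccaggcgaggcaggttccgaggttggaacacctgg
MVK: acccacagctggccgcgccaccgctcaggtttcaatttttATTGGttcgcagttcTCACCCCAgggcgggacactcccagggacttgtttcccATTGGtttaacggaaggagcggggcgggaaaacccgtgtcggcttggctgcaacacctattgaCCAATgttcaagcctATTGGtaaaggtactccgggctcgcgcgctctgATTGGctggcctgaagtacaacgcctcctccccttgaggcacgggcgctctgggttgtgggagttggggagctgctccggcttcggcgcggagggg
SREBF2: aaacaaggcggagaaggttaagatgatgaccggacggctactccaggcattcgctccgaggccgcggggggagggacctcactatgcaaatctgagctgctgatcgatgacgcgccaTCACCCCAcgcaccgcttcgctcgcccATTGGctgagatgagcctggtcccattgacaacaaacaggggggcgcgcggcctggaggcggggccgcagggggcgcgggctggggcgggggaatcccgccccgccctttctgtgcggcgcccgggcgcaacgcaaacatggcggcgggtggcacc
INSIG1: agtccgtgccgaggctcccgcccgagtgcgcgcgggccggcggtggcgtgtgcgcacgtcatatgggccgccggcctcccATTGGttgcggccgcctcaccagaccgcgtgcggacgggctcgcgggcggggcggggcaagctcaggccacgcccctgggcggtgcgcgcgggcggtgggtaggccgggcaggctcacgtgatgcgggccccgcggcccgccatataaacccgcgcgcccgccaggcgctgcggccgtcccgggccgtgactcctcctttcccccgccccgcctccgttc
HMGCS1: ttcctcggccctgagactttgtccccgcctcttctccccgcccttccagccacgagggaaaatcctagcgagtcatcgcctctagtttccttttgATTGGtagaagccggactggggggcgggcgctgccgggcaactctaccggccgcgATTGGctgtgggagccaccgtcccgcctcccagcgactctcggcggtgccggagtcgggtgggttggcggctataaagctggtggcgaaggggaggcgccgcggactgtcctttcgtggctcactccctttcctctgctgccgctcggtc

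With positions counted from 0 at the annotated start, the sterol element begins at -156 in MSMO1, with NF-Y boxes at -185, -139, -76 and -34. In MVK it begins at -195, among NF-Y boxes at -210, -157, -94, -79 and -46. In SREBF2 the element begins at -133 and a single NF-Y box at -106. INSIG1 has an NF-Y box at -170 and HMGCS1 has them at -155 and -100, neither with the sterol element as spelled here. A match is a description of the letters, and the lack of one says only that they are not in that window.

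On a per-length scale (transcripts per 1000000, TPM), the genes spanned a wide range of levels. The desaturase SCD had the highest median over the 8 groups, 1119.7 TPM, followed by the citrate lyase ACLY at 394 TPM, the squalene synthase FDFT1 at 279.7 TPM, the first-step thiolase ACAT2 at 206 TPM and the fatty acid synthase FASN at 203 TPM. CYP51A1, the lanosterol demethylase, had the lowest, 2.82 TPM, and its count is uncertain because its row overlaps other annotated transcripts. The exporters varied most between groups: the highest group mean was 22.0-fold above the lowest for ABCG1 and 14.8-fold for ABCA1, on the CPM scale, while the carboxylase ACACA varied 1.25-fold. ABCA1 ran in the order NT naive H1, ZNF8 knockdown naive H1, naive H9, ZIC2 knockdown ectoderm, NT ectoderm, primed H9, NT primed H1 and CARHSP1 knockdown primed H1, and the last pair overlapped.

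**Figure D1:**
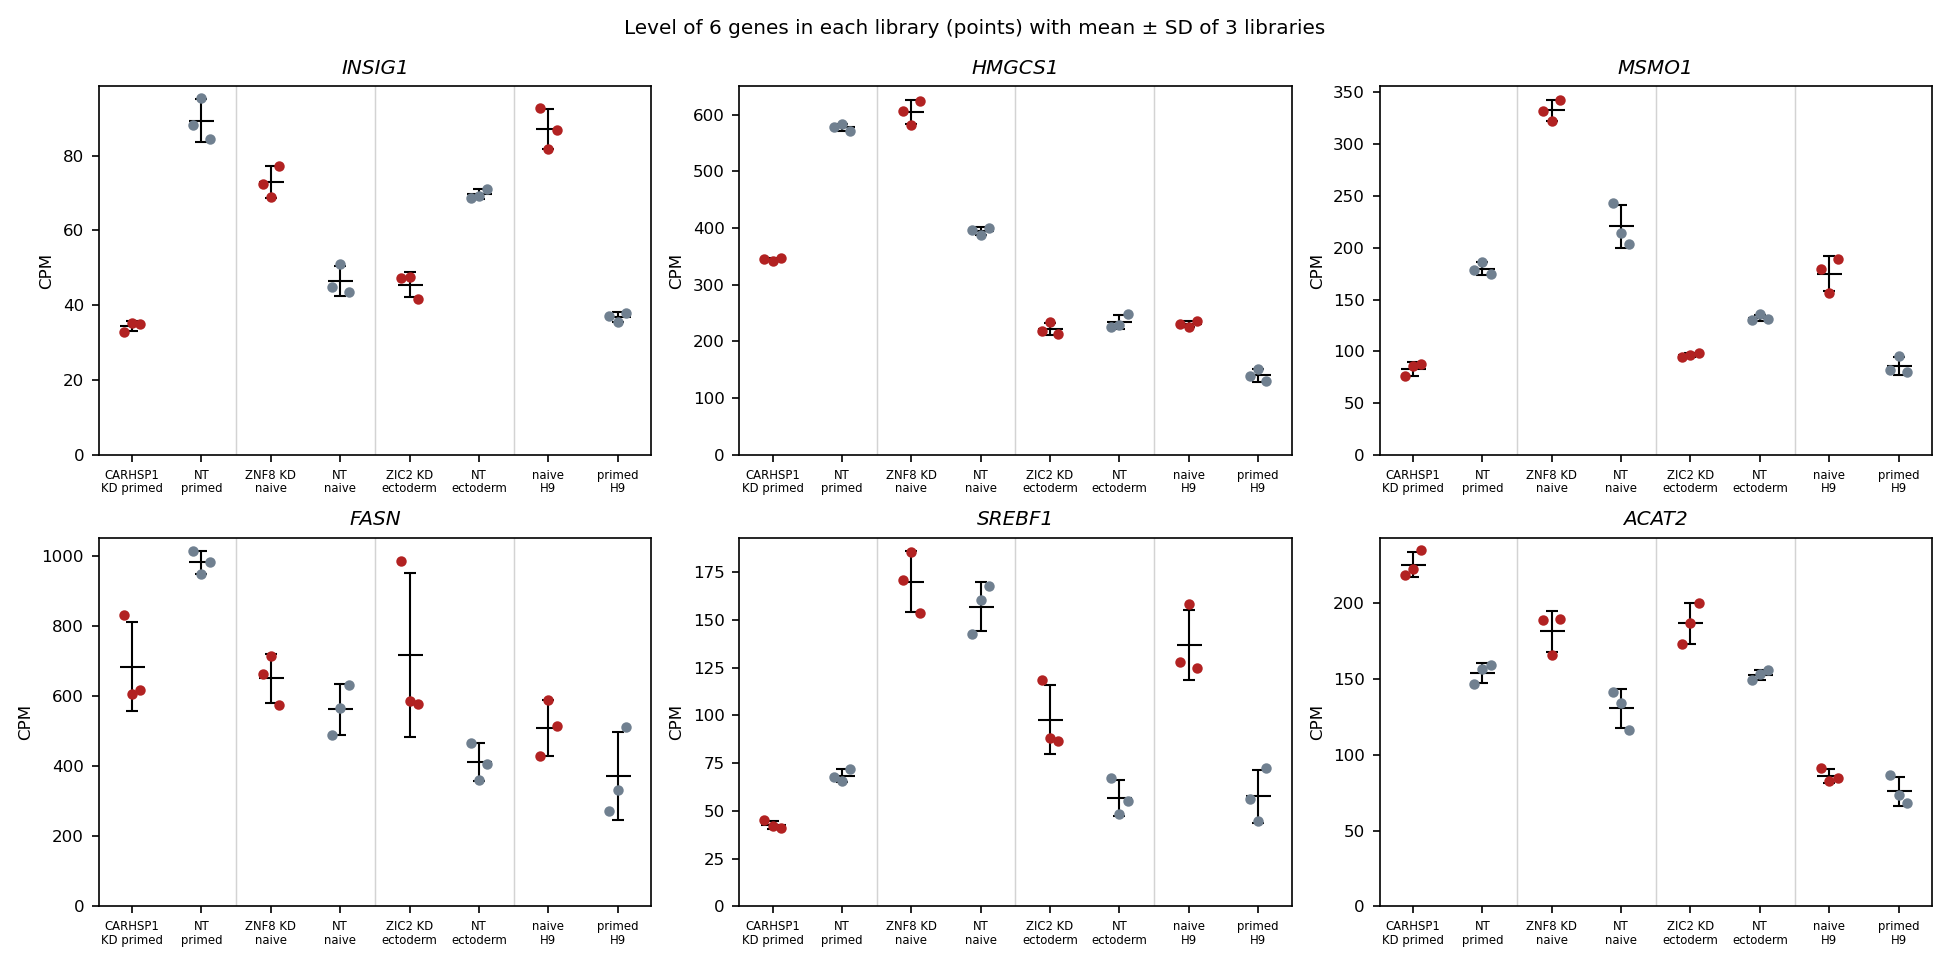
Level in CPM (vertical axes, from 0) of INSIG1, HMGCS1, MSMO1, FASN, SREBF1 and ACAT2 in each library of the 8 groups, each knockdown left of its NT control and naive H9 left of primed H9; points are libraries, bars the mean ± SD of 3 libraries. INSIG1 sits at 32.9 to 35.3 CPM with CARHSP1 knockdown, against 84.3 to 95.5 CPM in NT primed cells, and 1 ZIC2 knockdown library stands apart from the others of its group in FASN, at 986 CPM.

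Knockdown of CARHSP1 in primed cells lowered much of the pathway. At an adjusted p under 0.05 over all genes, by edgeR's quasi-likelihood test, 21 of the 36 genes were lower and 2 higher, against a background of 9.87% of all 15642 genes tested called lower and 10.3% called higher. The median log2 change of the 36 genes, knockdown minus NT, was -0.21, against -0.00 over all genes. In 27 of them the 3 knockdown libraries did not overlap the 3 NT libraries. The share of all genes without overlap was not counted, so this describes the libraries only.

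In the mevalonate steps 4 of 8 genes were lower and 2 higher. HMGCS1, which makes HMG-CoA, was at 345, 341 and 348 CPM in CARHSP1 knockdown libraries, against 577, 584 and 572 CPM in NT primed libraries. The groups lay far apart with little spread, a log2 change of -0.75 ± 0.04 (SE; edgeR adjusted p = 6.21e-17). The mevalonate kinase MVK was at 8.89, 7.96 and 7.16 CPM in knockdown libraries, against 16.1, 14.8 and 17.6 CPM in NT libraries, all 3 knockdown libraries below all 3 controls (-1.03 ± 0.15, edgeR adjusted p = 3.61e-06). The isomerase IDI1 (-0.84 ± 0.07) and the squalene synthase FDFT1 (-0.53 ± 0.04) also fell. ACAT2 went the other way, at 218, 222 and 235 CPM in knockdown libraries against 146, 156 and 159 CPM in NT libraries (0.55 ± 0.05, edgeR adjusted p = 1.36e-10), and so did the farnesyl diphosphate synthase FDPS, by 0.21 ± 0.05, a call that was lost without knockdown replicate 2 and which rests on a gene with 8 named pseudogenes. PMVK and MVD had log2 changes of 0.00 ± 0.13 and -0.07 ± 0.10.

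Between squalene and cholesterol 5 of 10 genes were lower and none higher. MSMO1, which removes methyl groups from the sterol ring, was at 75.7, 85.5 and 87.9 CPM in CARHSP1 knockdown libraries, against 178, 187 and 175 CPM in NT libraries, with a wide gap between the groups (-1.11 ± 0.06, edgeR adjusted p = 9.24e-18). The squalene epoxidase SQLE was at 138, 139 and 126 CPM, against 249, 259 and 243 CPM in NT libraries, again without overlap (-0.90 ± 0.05). DHCR7, the last reductase of the route, fell by 0.87 on the log2 scale, the reductase HSD17B7 by 0.70 and the desaturase SC5D by 0.53. The other 5 (LSS, CYP51A1, TM7SF2, NSDHL and EBP) had log2 changes of -0.36 to 0.05 and did not pass the test.

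All 5 genes of SREBP control were lower. INSIG1 had the largest change of all 36 genes: it was at 32.9, 35.3 and 35.1 CPM in CARHSP1 knockdown libraries, against 88.3, 95.5 and 84.3 CPM in NT libraries, 2.59-fold lower (log2 -1.37 ± 0.08, edgeR adjusted p = 2.07e-17). Transcripts of both SREBP genes fell: SREBF1 was at 45.1, 42.3 and 40.9 CPM against 67.7, 65.5 and 72.0 CPM in NT libraries (-0.68 ± 0.08), and SREBF2 was at 278, 268 and 278 CPM against 413, 394 and 388 CPM (-0.54 ± 0.05). In both genes every knockdown library was below every control. INSIG2, at 9.53 CPM on average against 13.7 CPM in NT cells, fell by 0.54, and SCAP had a log2 change of -0.19 that was 0.027 after removal of the dependence of the changes on GC content and length (below, GC and length trends).

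Neither sterol exporter was called. ABCA1 was at 18.2, 15.6 and 21.1 CPM in CARHSP1 knockdown libraries and at 21.7, 17.7 and 18.5 CPM in NT libraries, overlapping ranges (-0.08 ± 0.13), and ABCG1 had a log2 change of 0.39 ± 0.19 (edgeR adjusted p = 0.148). MYLIP had a log2 change of -0.07. The sterol carrier STARD4 fell by 0.60 and the lysosomal exporter NPC1 by 0.21, the second with an adjusted p of 0.0457 by edgeR. In fatty acid and lipid synthesis 5 of 8 genes were lower. FASN was at 830.1, 606 and 616 CPM in knockdown libraries, against 1013, 948 and 983 CPM in NT libraries; knockdown replicate 1 stood above the other two but below every control (-0.52 ± 0.06, edgeR adjusted p = 6.29e-08). SCD fell by 0.30, the polyunsaturated fatty acid desaturases FADS1 and FADS2 by 0.21 each and ACACA by 0.12; ACLY, ELOVL6 and LPIN1 had log2 changes of -0.13 to -0.06.

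Summed over the 18 enzymes of sterol synthesis, the level averaged 2020 ± 14.0 CPM with CARHSP1 knockdown against 2768 ± 20.5 CPM in NT primed cells (SD, n = 3 each), and over the 8 fatty acid and lipid genes 4318 ± 113 CPM against 5199 ± 34.7 CPM. Beside this, the 4 core pluripotency markers summed to 3505 to 3739 CPM in knockdown libraries and 3776 to 3923 CPM in NT libraries, the 8 naive markers to 23.2 to 27.0 CPM against 33.5 to 38.2 CPM, with KLF17 at 0 in both groups and ARGFX at 0 in the knockdown, and the 7 fibroblast markers to 582 to 615 CPM against 677 to 691 CPM, with LUM and DCN at 0 in the knockdown and COL3A1 and LUM at 0 in NT cells. The 8 primed markers summed to 2655 to 2768 CPM against 2480 to 2565 CPM, with 4 called higher and 2 lower, and the 7 neural ectoderm markers to 123 to 128 CPM against 146 to 152 CPM. THY1, which is in both the primed and the fibroblast list, averaged 361 CPM in knockdown libraries against 410 CPM in NT libraries. The part of these markers in the result was not tested. With GC and length trends removed, SCAP, NPC1, FADS2 and ACACA lost their call, while INSIG1 was at -1.43, MVK at -0.88, SREBF1 at -0.44 and FASN at -0.25. Single libraries also decided some weak calls, with a highest edgeR adjusted p of 0.0719 for FDPS (without knockdown replicate 2), 0.0893 for INSIG2 (lost without knockdown replicate 3 or NT replicate 1), 0.162 for SCAP (knockdown replicate 2 or NT replicate 3), 0.212 for NPC1 (knockdown replicate 1 or 2, NT replicate 1 or 3) and 0.155 for ACACA (knockdown replicate 1 or 2, any NT replicate).

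**Figure D2:**
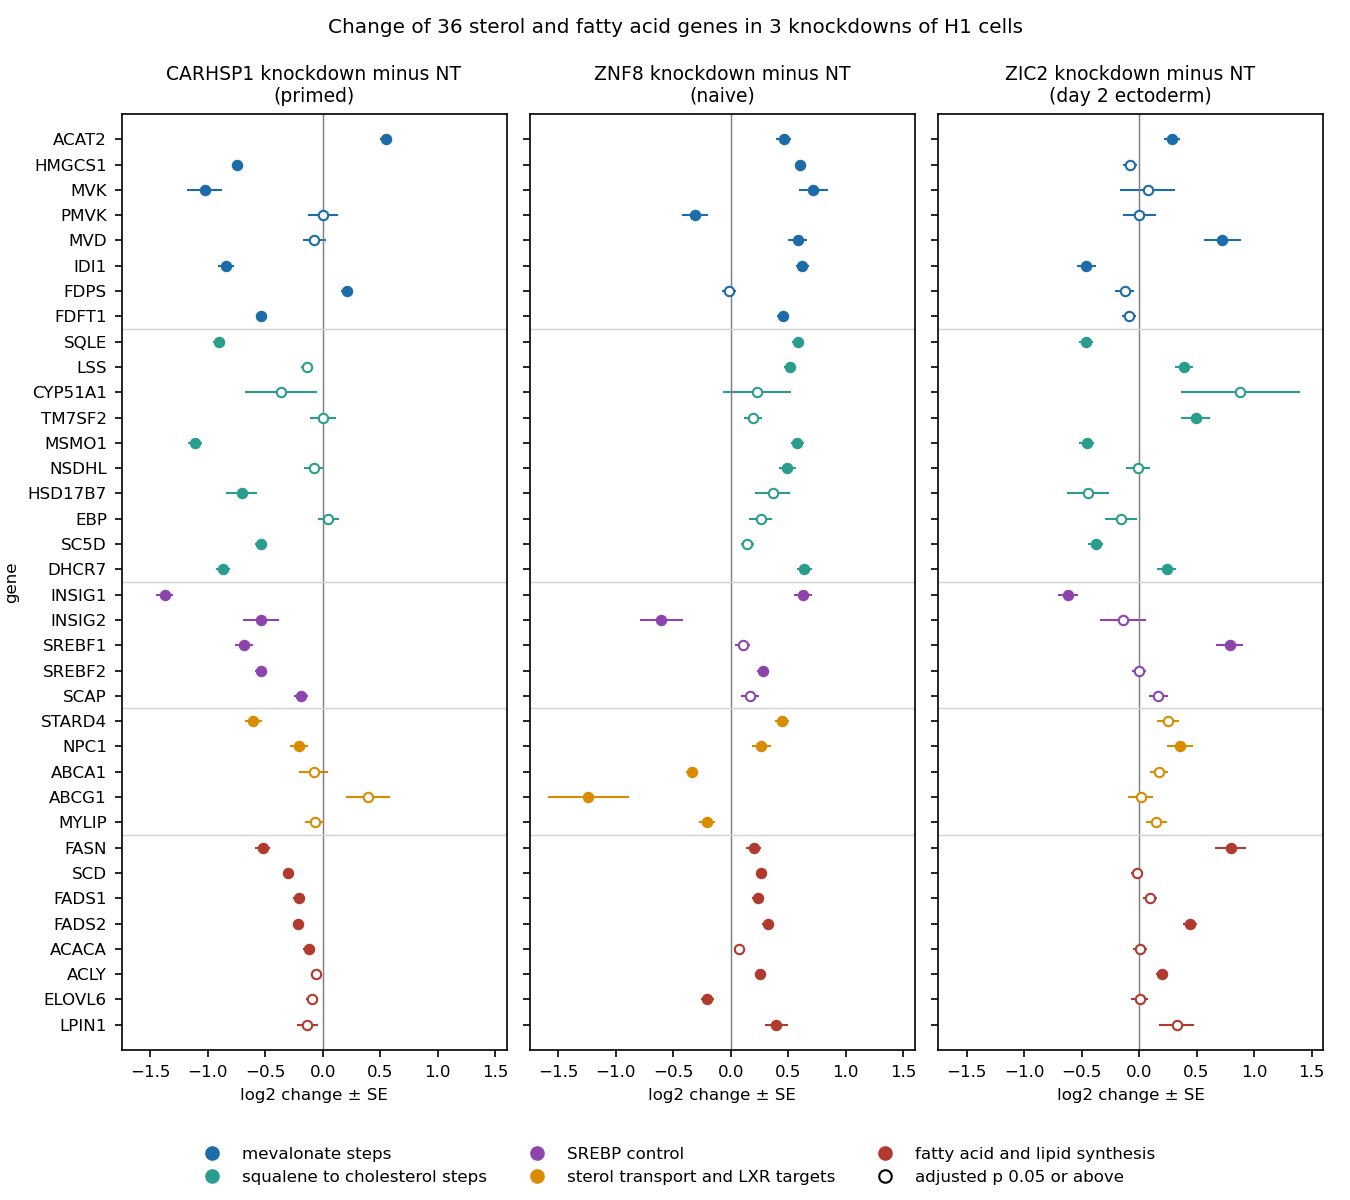
Log2 change ± SE of each of the 36 genes, knockdown minus NT (horizontal axis), ordered by role, in 3 panels for knockdown of CARHSP1, ZNF8 and ZIC2; filled points passed an adjusted p under 0.05. Most filled points lie left of 0 with CARHSP1 knockdown (21 lower, 2 higher) and right of 0 with ZNF8 knockdown (21 higher, 6 lower), and on both sides with ZIC2 knockdown (10 higher, 5 lower).

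In naive cells the libraries labelled ZNF8 knockdown had higher levels of the synthesis genes than their controls. Here 21 of the 36 genes were higher and 6 lower, against 11.9% and 12.3% of all 15323 genes tested, with a median log2 change of 0.27 against -0.01 over all genes. The groups of libraries did not overlap in 31 genes, a count with no share over all genes to set it against. The changes were moderate: among the synthesis and control genes the largest was 0.72, for MVK.

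The mevalonate steps held 6 higher genes of 8 and 1 lower. HMGCS1 was at 607, 581 and 624 CPM in ZNF8 knockdown libraries, against 397, 387 and 399 CPM in NT naive libraries, a gap many times the spread (0.60 ± 0.05, edgeR adjusted p = 6.28e-13). MVK was at 22.6, 25.1 and 23.1 CPM, against 14.2, 15.8 and 12.4 CPM in NT naive libraries (0.72 ± 0.12, edgeR adjusted p = 2.7e-05), again without overlap. IDI1 rose by 0.62, the decarboxylase MVD by 0.58, ACAT2 by 0.46 and FDFT1 by 0.45. The phosphomevalonate kinase PMVK was lower, at 23.8, 24.5 and 28.4 CPM against 25.2, 33.7 and 35.2 CPM; the groups overlapped (-0.31 ± 0.11, edgeR adjusted p = 0.0431), and the call was lost with DESeq2 and without knockdown replicate 1 or 2 or NT naive replicate 2 or 3 (highest edgeR adjusted p = 0.228).

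From squalene onward 5 of 10 genes were higher and none lower. SQLE was at 290.5, 269.6 and 293 CPM in ZNF8 knockdown libraries, against 189, 185 and 191 CPM in NT naive libraries (0.58 ± 0.05), and MSMO1 was at 332, 323 and 343 CPM against 244, 214 and 203 CPM (0.58 ± 0.06, edgeR adjusted p = 1.45e-10). In both genes every knockdown library was above every control. DHCR7 rose by 0.64, the lanosterol synthase LSS by 0.52 and the dehydrogenase NSDHL by 0.49; CYP51A1, TM7SF2, HSD17B7, EBP and SC5D had log2 changes of 0.14 to 0.36 and did not pass.

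Among the control genes INSIG1 was at 72.3, 68.9 and 77.3 CPM in ZNF8 knockdown libraries, against 44.9, 51.1 and 43.5 CPM in NT naive libraries, 1.55-fold higher and without overlap (log2 0.63 ± 0.08, edgeR adjusted p = 9.76e-08). SREBF2 rose by 0.28 ± 0.05, whereas SREBF1, at 171, 185 and 154 CPM against 143, 160.3 and 168 CPM in NT naive libraries, overlapped its controls (0.10 ± 0.06, edgeR adjusted p = 0.252). INSIG2 fell by 0.61 at levels under 11 CPM in every library, a call lost without ZNF8 knockdown replicate 2 or NT naive replicate 1 (highest edgeR adjusted p = 0.0941).

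LXR targets were lower while the carriers STARD4 and NPC1 were higher. ABCA1 was at 223, 222 and 202 CPM in ZNF8 knockdown libraries, against 272, 275 and 264 CPM in NT naive libraries, without overlap (-0.34 ± 0.05, edgeR adjusted p = 3.06e-06). ABCG1, a second exporter, was at 1.34, 1.80 and 1.57 CPM against 2.23, 3.16 and 5.70 CPM; the control libraries were spread widely, and the log2 change of -1.24 ± 0.35 (edgeR adjusted p = 0.00796) was -0.80 with an adjusted p of 0.158 without NT naive replicate 3, and the call was also lost without ZNF8 knockdown replicate 1. MYLIP, a ubiquitin ligase that marks lipoprotein receptors for breakdown, was at 77.1, 79.1 and 78.0 CPM against 90.1, 86.2 and 91.3 CPM (-0.21 ± 0.07, edgeR adjusted p = 0.0196); its call was lost without knockdown replicate 1 or NT naive replicate 1 or 3 (highest edgeR adjusted p = 0.114). STARD4 rose by 0.44 and NPC1 by 0.27, the second lost without knockdown replicate 3 or NT naive replicate 2 (highest edgeR adjusted p = 0.111).

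In fatty acid and lipid synthesis 6 of 8 genes were higher. FADS2 was at 435, 462 and 410.1 CPM in ZNF8 knockdown libraries, against 344, 364 and 328 CPM in NT naive libraries (0.32 ± 0.05), and SCD at 1768, 1743 and 1770.2 CPM against 1489, 1417 and 1447 CPM (0.26 ± 0.04). Neither gene's groups overlapped. The phosphatidate phosphatase LPIN1 rose by 0.40, ACLY by 0.25 and FADS1 by 0.24. FASN, at 664, 714 and 575 CPM against 488, 565 and 633 CPM, overlapped its controls although it passed the test (0.20 ± 0.06, edgeR adjusted p = 0.0177), and DESeq2 did not call it (adjusted p = 0.33); without knockdown replicate 1 or 2 or NT naive replicate 1 or 2 the edgeR adjusted p reached 0.251. The elongase ELOVL6 fell by 0.20, a call lost without NT naive replicate 3 (edgeR adjusted p = 0.0894). FDPS, SCAP and ACACA, with log2 changes of -0.02, 0.17 and 0.07, were not called.

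The 18 sterol enzymes summed to 3170 ± 39.8 CPM with ZNF8 knockdown against 2261 ± 61.0 CPM in NT naive cells (SD, n = 3 each), and the 8 fatty acid and lipid genes to 4289 ± 79.7 CPM against 3652 ± 42.2 CPM. The 4 core pluripotency markers summed to 2635 to 2821 CPM in knockdown libraries against 2952 to 3007 CPM in NT naive libraries. The 8 naive markers summed to 225 to 229 CPM against 472 to 495 CPM, with 6 of 8 called lower and KLF17 at 1.51 CPM against 10.8 CPM on average. The 8 primed markers summed to 755 to 794 CPM against 790 to 824 CPM, with 1 of the 4 tested called higher and 1 lower. The 7 trophoblast and amnion markers summed to 20.2 to 23.6 CPM against 74.1 to 78.4 CPM, with CGA at 0 in the knockdown, and the 7 fibroblast markers to 392 to 428 CPM against 305 to 316 CPM, with COL3A1, LUM and DCN at 0 in the knockdown. Their part in the result was not tested.

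**Figure D3:**
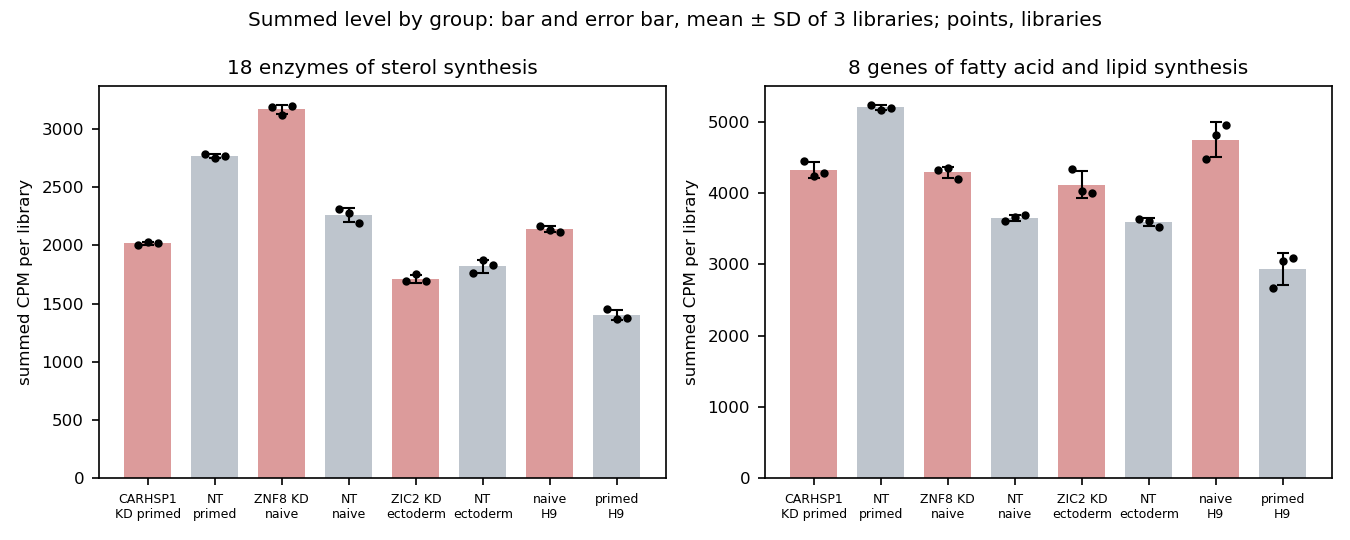
Summed CPM of the 18 sterol synthesis enzymes and of the 8 fatty acid and lipid genes (vertical axes, from 0) in each library; points are libraries, bars the mean ± SD of 3 libraries, each tested group left of its control. The sterol sum averages 2020 CPM with CARHSP1 knockdown against 2768 CPM in its control, and 3170 CPM with ZNF8 knockdown against 2261 CPM in its control.

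In day 2 ectoderm, knockdown of ZIC2 moved fewer of these genes and split them. The test called 10 of 36 higher and 5 lower, against 15.3% and 12.8% of all 15013 genes tested, so the share called lower, 13.9%, was near the background. The median log2 change was 0.04, against -0.01 over all genes. The groups of libraries did not overlap in 19 genes, again with no share over all genes to set it against.

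Of the 8 fatty acid and lipid genes 3 were higher and none lower. FASN was at 986, 587 and 578 CPM in ZIC2 knockdown libraries, against 467, 361 and 407 CPM in NT ectoderm libraries; all 3 were above the controls, with replicate 1 far above the other two (0.80 ± 0.13, edgeR adjusted p = 0.000113). Without ZIC2 knockdown replicate 1 the change was 0.50. SREBF1, the SREBP gene of that arm, was at 119, 88.2 and 86.6 CPM against 67.2, 48.3 and 55.1 CPM, with the same library highest and no overlap (0.79 ± 0.12, edgeR adjusted p = 2.34e-05). FADS2 rose by 0.45 and ACLY by 0.20, while SCD, ACACA, ELOVL6 and FADS1 had log2 changes of -0.02 to 0.10.

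Sterol genes went both ways with ZIC2 knockdown. MVD was at 35.7, 23.5 and 23.1 CPM in knockdown libraries, against 16.5, 15.9 and 17.2 CPM in NT ectoderm libraries, again highest in replicate 1 (0.73 ± 0.16, edgeR adjusted p = 0.00158). The sterol reductase TM7SF2 rose by 0.49, LSS by 0.39, ACAT2 by 0.29, DHCR7 by 0.24 and NPC1 by 0.36. The call of DHCR7 was lost without knockdown replicate 1 or NT ectoderm replicate 1 or 3 (highest edgeR adjusted p = 0.128), and that of NPC1 without replicate 2 or 3 of either group (highest edgeR adjusted p = 0.139). INSIG1 was lower, at 47.4, 47.4 and 41.6 CPM against 68.6, 69.1 and 71.1 CPM, with a wide gap (-0.62 ± 0.09, edgeR adjusted p = 1.6e-05). SQLE was at 139.9, 141 and 140.3 CPM against 191, 203 and 185 CPM (-0.46 ± 0.06), and MSMO1 at 94.8, 96.4 and 98.7 CPM against 130.0, 136 and 131 CPM (-0.46 ± 0.07), both without overlap. IDI1 fell by 0.46 and SC5D by 0.38. HMGCS1, at 218, 234 and 213 CPM against 225, 229 and 248 CPM, overlapped its controls (-0.08 ± 0.06), and SREBF2 had a log2 change of -0.00 ± 0.06. CYP51A1 reached 0.88 ± 0.52 without passing the test. The other genes that were not called (MVK, PMVK, FDPS, FDFT1, NSDHL, HSD17B7, EBP, INSIG2, SCAP, STARD4, ABCA1, ABCG1, MYLIP and LPIN1) had log2 changes of -0.44 to 0.33.

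This split ran along base composition. The 10 genes higher with ZIC2 knockdown had a transcript GC content of 50.2% to 65.3% (median 58.5%), against 38.1% to 46.5% (median 41.1%) for the 5 lower ones, and the ranges did not meet. Over the 36 genes, which share their libraries, Spearman's rho between log2 change and GC content was 0.53, beside 0.33 over all genes tested. With GC and length trends removed over all genes, it was 0.21 over the 36, and FASN was at 0.28, SREBF1 at 0.39, FADS2 at 0.21, NPC1 at 0.34, ACAT2 at 0.31 and ACLY at 0.17, all still called higher. MVD at 0.30, LSS at 0.17, TM7SF2 at 0.08 and DHCR7 at 0.05 were no longer called. The 5 lower genes kept their call, INSIG1 at -0.58, SQLE at -0.43, IDI1 at -0.38, MSMO1 at -0.35 and SC5D at -0.31. Another 3 genes, not called with ZIC2 knockdown before the trends were removed, were then called. With CARHSP1 knockdown rho was 0.35 over the 36 genes, opposite in sign to the -0.33 over all genes, and with ZNF8 knockdown it was -0.04 beside 0.07. With the trends removed these were 0.56 beside -0.00 for CARHSP1 and -0.11 beside 0.04 for ZNF8.

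**Figure D4:**
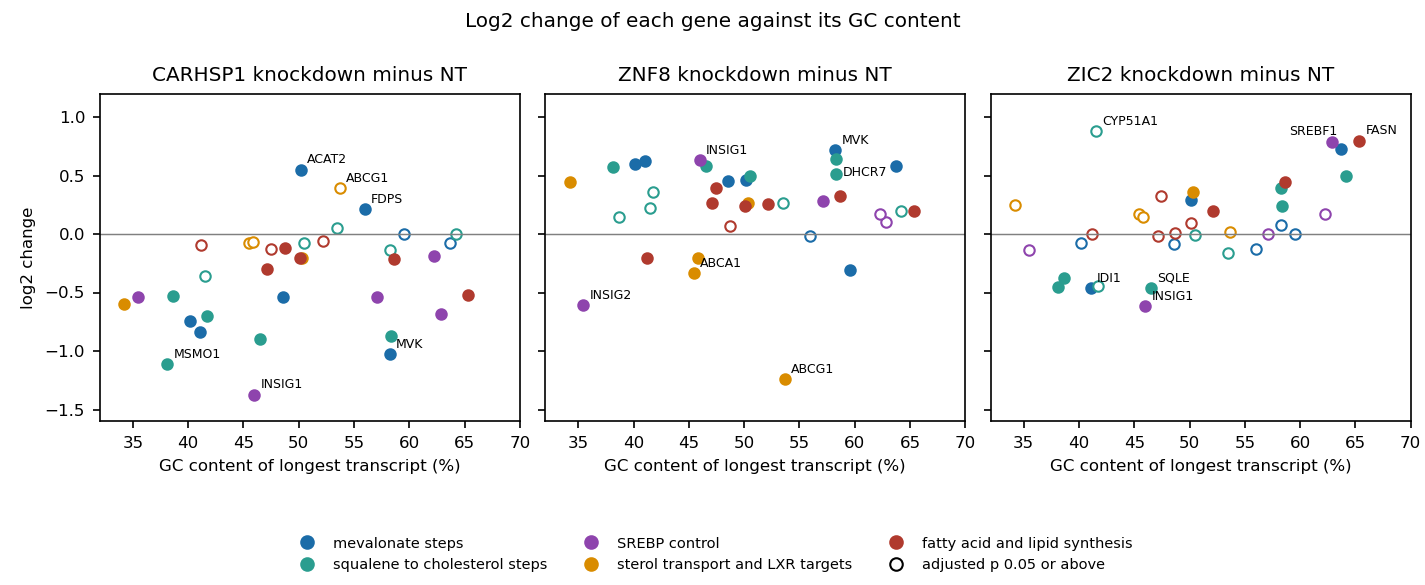
Log2 change, knockdown minus NT (vertical axis), of each of the 36 genes against the GC content of its longest transcript in percent (horizontal axis), coloured by role, for the 3 knockdowns; filled points passed an adjusted p under 0.05. With ZIC2 knockdown the filled points above 0 lie at 50.2% GC or more and those below 0 at 46.5% or less, a split not seen in the ZNF8 panel.

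The sterol enzymes summed to 1714 ± 34.5 CPM with ZIC2 knockdown against 1823 ± 56.2 CPM in NT ectoderm, and the fatty acid and lipid genes to 4118 ± 184 CPM against 3587 ± 55.0 CPM (SD, n = 3 each). The 4 core pluripotency markers summed to 4073 to 4283 CPM in knockdown libraries against 5120 to 5563 CPM in NT libraries, with 1 called higher and 2 lower. Most of that sum was LIN28A, which averaged 3221 CPM against 4099 CPM, while NANOG averaged 7.99 CPM against 3.91 CPM. The 7 neural ectoderm markers summed to 746 to 797 CPM against 975 to 1138 CPM, with LHX2 at 0 in the knockdown. Of the 6 tested, 3 were called lower and 0 higher, and SOX1 averaged 15.7 CPM against 11.9 CPM. The 7 fibroblast markers summed to 289 to 311 CPM against 186 to 198 CPM, with COL3A1, LUM, DCN and POSTN at 0 in both. The 7 trophoblast and amnion markers summed to 7.25 to 9.36 CPM against 0.145 to 1.75 CPM, with HAND1 and CGA at 0 in both and GATA3 and TFAP2A also at 0 in NT libraries. The 8 primed markers summed to 2053 to 2089 CPM against 2474 to 2525 CPM, although 5 of the 7 tested were called higher and 2 lower. The part of these markers in the result was not tested.

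The opposite movement with ZNF8 and CARHSP1 knockdown was tested as a difference of the log2 changes. These comparisons share no libraries. Between the 3 knockdown comparisons the gene knocked down and the cell state differ together, and their parts cannot be told apart. The difference, ZNF8 minus CARHSP1, was positive and called for 25 of the 36 genes and negative for 2, against 11.4% and 9.77% of all genes, with a median of 0.58 against 0.00 over all genes. It was largest for INSIG1 (2.02 ± 0.11), MVK (1.76 ± 0.19), MSMO1 (1.70 ± 0.08), DHCR7 (1.52 ± 0.09) and SQLE (1.49 ± 0.07), all with an edgeR adjusted p of 1.99e-09 or less. The 2 negative ones were ABCG1 (-1.61 ± 0.38) and FDPS (-0.22 ± 0.08), whose call was lost without any of 8 of the 12 libraries (highest edgeR adjusted p = 0.201). In all, 15 genes were called higher with ZNF8 knockdown and lower with CARHSP1 knockdown: HMGCS1, MVK, IDI1, FDFT1, SQLE, MSMO1, DHCR7, INSIG1, SREBF2, STARD4, NPC1, FASN, SCD, FADS1 and FADS2. That was 71.4% of the 21 higher with ZNF8 knockdown and 71.4% of the 21 lower with CARHSP1 knockdown, beside 17.4% of 1753 and 21.0% of 1451 over the 14241 genes tested in both. None went the other way. ACAT2 and INSIG2 were called in the same direction in both, and ACAT2, alone of the 36, was called in the same direction, higher, in all 3 knockdowns. CYP51A1 and EBP were called in none.

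With ZIC2 knockdown those 15 genes divided: DHCR7, NPC1, FASN and FADS2 were higher, IDI1, SQLE, MSMO1 and INSIG1 lower, and 7 were not called. The difference of log2 changes, ZIC2 minus CARHSP1, was positive and called for 22 genes and negative for 2, against 15.5% and 12.6% of all genes, and reached 1.47 ± 0.15 for SREBF1 and 1.32 ± 0.18 for FASN. Over all genes it was positive for 2534 and negative for 2062, and for 1468 and 1934 with GC and length trends removed, when 18 of the 36 were positive and 3 negative. ZIC2 minus ZNF8 was positive for 5 and negative for 12, against 10.1% and 6.59% of all genes. Over all genes that was 1696 and 1103, and 1300 and 1520 with GC and length trends removed, when 5 of the 36 were positive and 16 negative. Its negative end held INSIG1 (-1.25 ± 0.12), IDI1 (-1.09 ± 0.11), SQLE (-1.05 ± 0.08) and MSMO1 (-1.04 ± 0.09), and its positive end ABCG1 (1.24 ± 0.31), SREBF1 (0.69 ± 0.14), FASN (0.60 ± 0.17), ABCA1 (0.51 ± 0.09) and MYLIP (0.35 ± 0.11); without NT naive replicate 3 the positive calls numbered 2, with ABCG1, FASN and MYLIP lost, and FASN was also lost without ZIC2 knockdown replicate 1, NT ectoderm replicate 2 or ZNF8 knockdown replicate 3 (highest edgeR adjusted p = 0.0707).

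Between naive and primed cells the genes moved differently in the H1 and H9 lines. In NT H1 cells 9 of 36 were higher and 19 lower in naive cells, against 35.0% and 36.1% of all 15874 genes tested, with a median log2 change of -0.28. In H9 cells 23 were higher and 3 lower, against 25.4% and 26.1% of all 15761 genes, with a median of 0.61. These H1 libraries are the controls of the CARHSP1 and ZNF8 comparisons above. Line, doxycycline treatment and count table differ together between the H1 and H9 comparisons and cannot be told apart. Marker levels of the cells labelled naive also differ between the lines (below).

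INSIG1 was at 44.9, 51.1 and 43.5 CPM in NT naive H1 libraries against 88.3, 95.5 and 84.3 CPM in NT primed H1 libraries, and at 92.6, 81.8 and 86.9 CPM in naive H9 libraries against 37.2, 35.5 and 38.0 CPM in primed H9 libraries. Neither pair overlapped, and the log2 changes were -0.95 ± 0.08 in H1 and 1.23 ± 0.10 in H9. HMGCS1 was at 397, 387 and 399 CPM in NT naive H1 libraries against 577, 584 and 572 CPM in NT primed H1 libraries (-0.57 ± 0.04), and at 229.9, 226 and 237 CPM in naive H9 libraries against 138, 152 and 130.0 CPM in primed H9 libraries (0.71 ± 0.09). SCD was at 1489, 1417 and 1447 CPM in NT naive H1 libraries against 2093, 2127 and 2099 CPM in NT primed H1 libraries, and at 2653, 2749 and 2940.1 CPM in naive H9 libraries against 1014, 1158 and 1046 CPM in primed H9 libraries (-0.55 ± 0.03 in H1, 1.37 ± 0.08 in H9). Each of these genes was lower in naive than in primed H1 and higher in naive than in primed H9, in every library.

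The difference of the state changes, H1 minus H9, was negative and called for 26 genes and positive for 3, against 26.2% and 23.6% of all 17140 genes tested, with a median of -0.64 against -0.04 over all genes. It was -2.17 ± 0.12 for INSIG1, -1.91 ± 0.08 for SCD, -1.78 ± 0.20 for INSIG2, -1.43 ± 0.12 for DHCR7 and -1.39 ± 0.09 for SQLE. The 3 positive ones were TM7SF2 (1.77 ± 0.15), ABCA1 (1.74 ± 0.16) and PMVK (0.99 ± 0.19). Called lower in naive H1 and higher in naive H9 were 9 genes: HMGCS1, FDPS, FDFT1, SQLE, DHCR7, INSIG1, INSIG2, FASN and SCD. They are 47.4% of the 19 lower in H1 and 39.1% of the 23 higher in H9, beside 12.6% of 5448 and 17.9% of 3829 over all genes tested in both. FASN was the weakest of them in H9, at 429, 588 and 514 CPM in naive libraries against 273, 332 and 512 CPM in primed libraries; the groups overlapped, and the call was lost without naive replicate 2 or primed replicate 1 or 2 (highest edgeR adjusted p = 0.125).

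Some genes were called in the same direction in both lines. ABCA1 was at 272, 275 and 264 CPM in NT naive H1 libraries against 21.7, 17.7 and 18.5 CPM in NT primed H1 libraries, 13.6-fold higher (3.77 ± 0.07, edgeR adjusted p = 1.37e-51), and at 118, 122 and 153 CPM in naive H9 libraries against 26.1, 37.9 and 31.8 CPM in primed H9 libraries, 4.11-fold higher (2.04 ± 0.13). It was the gene with the largest state change of the 36 in each line. SREBF1 was higher in naive cells by 1.18 ± 0.06 in H1 and 1.23 ± 0.13 in H9, and MYLIP by 0.87 ± 0.08 and 1.15 ± 0.09. MSMO1, NSDHL, STARD4 and ELOVL6 were also higher in both, ELOVL6 by 0.11 in H1 with a call that was lost without any of 4 libraries (highest edgeR adjusted p = 0.27), and FADS1 and FADS2 were lower in both. SCAP was lower in naive H1 cells by 0.99 on the log2 scale and had a change of -0.17 in H9 that did not pass. TM7SF2, a reductase of the sterol ring, was alone of the 36 in being called higher in naive H1 and lower in naive H9. It was at 61.1, 57.4 and 56.6 CPM in NT naive H1 libraries against 23.5, 25.8 and 26.6 CPM in NT primed H1 libraries, and at 36.2, 46.9 and 34.7 CPM in naive H9 libraries against 55.6, 52.2 and 65.2 CPM in primed H9 libraries, without overlap in either line (1.19 ± 0.09 in H1, -0.57 ± 0.12 in H9). In H1, MVK, MVD, IDI1, LSS, CYP51A1, SC5D, SREBF2 and ACACA were not called, with log2 changes of -0.21 to 0.18, and in H9 the 10 genes not called had changes of -0.41 to 0.26. With GC and length trends removed, SREBF2 was at 0.26 and ACACA at 0.14 in H1, both then called (edgeR adjusted p = 1.56e-08 and 0.0014).

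Other markers differed between the states as well. The 8 naive markers summed to 472 to 495 CPM in NT naive H1 libraries against 33.5 to 38.2 CPM in NT primed H1 libraries, and to 249 to 254 CPM in naive H9 libraries against 16.7 to 18.5 CPM in primed H9 libraries. The 8 primed markers summed to 790 to 824 CPM in NT naive H1 libraries against 2480 to 2565 CPM in NT primed H1 libraries. In H9 the primed markers summed to 1311 to 1430 CPM in naive libraries against 3174 to 3312 CPM in primed libraries. Among them, SFRP2 averaged 0.382 CPM in NT naive H1 and 68.7 CPM in naive H9, whereas CDH2 averaged 32.6 CPM and 11.4 CPM. The 7 trophoblast and amnion markers summed to 74.1 to 78.4 CPM in NT naive H1 libraries against 13.6 to 16.5 CPM in NT primed H1 libraries, with 5 of 6 tested called higher and 1 lower and with HAND1 and CGA at 0 in primed cells. In H9 they summed to 6.92 to 11.5 CPM in naive libraries against 43.3 to 47.8 CPM in primed libraries, with CGA at 0 in both. Although that sum was lower in naive H9, 2 of the 3 tested were called higher there and 1 lower. Their part in the result was not tested.

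**Figure D5:**
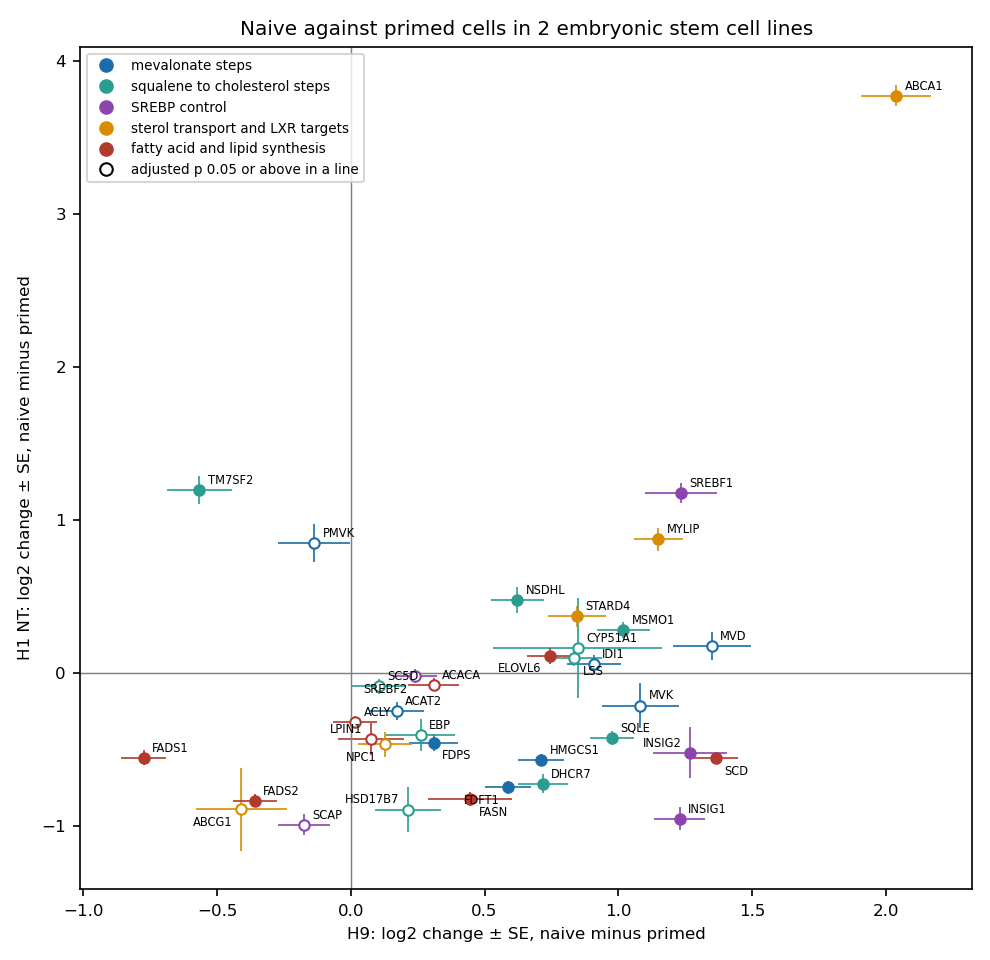
Log2 change ± SE, naive minus primed, of each of the 36 genes in NT H1 cells (vertical axis) against H9 cells (horizontal axis), coloured by role; filled points passed an adjusted p under 0.05 in both lines. INSIG1 and SCD lie at the lower right, at -0.95 and -0.55 in H1 with 1.23 and 1.37 in H9, and ABCA1 at the upper right, at 3.77 in H1 and 2.04 in H9.

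Day 2 ectoderm had less of most pathway transcripts than primed cells. Between NT ectoderm and NT primed H1 cells 3 genes were higher and 26 lower, against 30.7% and 32.1% of all 15409 genes tested, with a median log2 change of -0.46. HMGCS1 was at 225, 229 and 248 CPM in NT ectoderm libraries, against 577, 584 and 572 CPM in NT primed libraries (-1.31 ± 0.05), and FASN at 467, 361 and 407 CPM against 1013, 948 and 983 CPM (-1.27 ± 0.07), both far apart. MVD (-1.36 ± 0.11), MVK (-1.33 ± 0.19), LPIN1 (-1.18 ± 0.13), LSS (-1.01 ± 0.06) and DHCR7 (-1.01 ± 0.07) fell by similar amounts, whereas IDI1, SC5D, ACAT2, PMVK, FDPS, TM7SF2 and MYLIP had log2 changes of -0.13 to 0.15 and were not called. The exporters ran against the rest: ABCG1 was at 36.6, 33.9 and 32.5 CPM in NT ectoderm libraries, against 6.77, 7.46 and 5.84 CPM in NT primed libraries (2.35 ± 0.14, edgeR adjusted p = 1.45e-14), and ABCA1 at 89.3, 84.2 and 78.6 CPM against 21.7, 17.7 and 18.5 CPM (2.09 ± 0.10). FADS1 rose by 0.43. SREBF1 and SCAP, at -0.29 and -0.41, turned to 0.41 and 0.24 once GC and length trends were removed, with 7 genes then called higher. CYP51A1, INSIG2, SREBF1 and NSDHL lost their lower call when single libraries were left out (highest edgeR adjusted p 0.144, 0.104, 0.126 and 0.186), NSDHL without any one of the 6. Mitochondrially encoded genes took 2.00% to 2.43% of counts in NT ectoderm libraries against 5.82% to 6.09% in NT primed libraries. The 7 neural ectoderm markers summed to 975 to 1138 CPM against 146 to 152 CPM, with all 6 tested called higher, and the 7 fibroblast markers to 186 to 198 CPM against 677 to 691 CPM, with all 4 tested called lower. Much of the fibroblast sum was THY1, also a primed marker, which averaged 58.8 CPM in NT ectoderm against 410 CPM in NT primed cells. The part of these in the result was not tested.

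Genes of the same pathways outside the 36 were counted by list. With CARHSP1 knockdown, 4 of 18 further genes of SREBP and LXR control were higher and 3 lower, and of 21 tested in fatty acid synthesis and elongation 4 were higher and 2 lower, beside 10.3% and 9.87% of all genes. ACSS2, which makes acetyl-CoA from acetate, was at 91.8 CPM on average with CARHSP1 knockdown against 65.0 CPM in NT primed cells (0.50 ± 0.07), and the lysosomal lipase LIPA at 81.3 CPM against 59.2 CPM (0.45 ± 0.07). LIPA was the 1 gene called higher of 14 tested in sterol uptake, storage and other transport. In that list 2 were lower, LRP8 (-0.21 ± 0.07) and TMEM97 (-0.17 ± 0.06). Of 8 genes of glycerolipid synthesis 2 were lower and 0 higher, beside the same shares of all genes. With ZNF8 knockdown, of 13 genes of sterol uptake, storage and other transport 4 were higher and 2 lower, beside 11.9% and 12.3% of all genes. SOAT1, which esterifies cholesterol for storage, was at 34.3 CPM with ZNF8 knockdown against 56.4 CPM in NT naive cells (-0.73 ± 0.09), and ERG28, a scaffold of sterol demethylation, at 109 CPM against 73.5 CPM (0.55 ± 0.07). With ZIC2 knockdown, 4 of 14 genes of that list were higher and 2 lower, and of 21 in fatty acid synthesis and elongation 8 were higher and 2 lower, beside 15.3% and 12.8% of all genes. The lipoprotein receptor VLDLR was at 52.0 CPM with ZIC2 knockdown against 15.5 CPM in NT ectoderm (1.71 ± 0.16), and SOAT1 at 26.0 CPM against 50.2 CPM (-0.94 ± 0.12).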

How the data were processed

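Gene counts of 24 polyadenylated RNA libraries (TruSeq Stranded mRNA) were deposited by the authors as raw counts in 2 tables, 1 for H1 and 1 for H9. HISAT2 and the build GRCh38 are named in the submitters' processing notes; the sources used here give neither the counting tool nor its strand setting, and 25 of the 36 genes overlap another annotated gene. A further 27 columns that match no labelled sample were not used. Gene lengths were deposited beside the counts.

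From the deposited counts, each pair of groups was fitted alone with edgeR 4.0.16 in R 4.3.3 (filterByExpr, TMM, quasi-likelihood F test, Benjamini-Hochberg threshold 0.05 over all genes tested); all 36 genes passed the filter on low counts in every comparison. Differences between comparisons were interaction terms. An SE is the log2 change over the square root of F. CPM values were TMM-scaled over all 24 libraries, and TPM used the deposited length. GC content is that of the longest transcript. All 36 genes and the knockdown targets are named, with only some of the further genes in the lists. Most of those named were among the 4 genes per list and comparison with the smallest adjusted p. They do not stand for their lists. The genes, lists and markers were chosen with earlier results of these data known. Alternatives were RLE scaling, DESeq2 1.42.0, no low-count filter, the replicate number as a block, removal of GC and length trends (splines with 5 degrees of freedom), all 6 H1 groups in 1 fit, CPM of raw totals, and leaving out each library. The fits were tested on simulated counts. Precision rests on 3 libraries per group.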

Additional observations from a re-analysis of the deposited data

Results flagged for a closer look

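Differences between the changes in separate comparisons were called for many of the 36 genes. Between ZNF8 and CARHSP1 knockdown the log2 changes of 27 genes differed, 25 positive and 2 negative, beside 11.4% and 9.77% of all genes. Of these, 15 were called in opposite directions. The largest of those differences, ZNF8 minus CARHSP1, were 2.02 for INSIG1, 1.76 for MVK and 1.70 for MSMO1. Between ZIC2 and CARHSP1 knockdown 24 differed, 22 positive and 2 negative, beside 15.5% and 12.6% of all genes. There, 5 were called in opposite directions, with ZIC2 minus CARHSP1 at 1.47 for SREBF1, 1.32 for FASN and 1.11 for DHCR7. Between ZIC2 and ZNF8 knockdown 17 differed, 5 positive and 12 negative, beside 10.1% and 6.59% of all genes. Here 4 were opposite, with ZIC2 minus ZNF8 at -1.25 for INSIG1, -1.09 for IDI1 and -1.05 for SQLE. For the comparisons with ZIC2, the share of all genes called in opposite directions was not counted. Between the naive and primed changes of H1 and of H9, 29 differed, 3 positive and 26 negative, beside 23.6% and 26.2% of all genes. Of the 29, 10 were opposite, with H1 minus H9 at -2.17 for INSIG1, -1.91 for SCD and -1.78 for INSIG2. Each difference was tested by an interaction term with edgeR. Between knockdowns, the gene knocked down and the cell state differ together. Groups of 3 libraries are too small for a test of single outlying libraries.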

How the results depend on the processing

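Of the genes called, those called under every alternative run were 17 of 23 with CARHSP1, 20 of 27 with ZNF8 and 10 of 15 with ZIC2 knockdown, 22 of 26 between naive and primed H9, 27 of 28 between naive and primed H1, and 24 of 29 between ectoderm and primed cells. Of the differences between changes, 24 of 27 held for ZNF8 minus CARHSP1, 17 of 24 for ZIC2 minus CARHSP1, 12 of 17 for ZIC2 minus ZNF8 and 28 of 29 for H1 minus H9. Removing GC and length trends, without and with the replicate block, turned the sign of SCAP with CARHSP1 knockdown (0.027 and 0.024), in ectoderm (0.24 and 0.23) and in ZIC2 minus CARHSP1 (-0.24 and -0.23), of SREBF1 (0.41 and 0.41), TM7SF2 (0.62 and 0.62) and DGAT1 (0.016 and 0.0097) in ectoderm, of TM7SF2 in ZIC2 minus CARHSP1 (-0.13 and -0.13), of PCYT2 with ZIC2 knockdown (-0.025 and -0.015), and of SREBF2 (0.26 and 0.25), ACACA (0.14 and 0.14) and the CARHSP1 transcript (0.029 and 0.025) in naive H1; with the trends removed and the block, SCAP with ZIC2 knockdown was at -0.20. It raised the genes called higher in ectoderm to 7 in both fits, against 3, and with the block those lower with ZIC2 knockdown to 8, against 5. Without a low-count filter 1 gene was lower in ZNF8 minus CARHSP1, against 2. The causes were not tested. Leaving out each library in turn gave 1 to 2 genes higher with CARHSP1 knockdown, 2 to 6 lower with ZNF8 knockdown (fewest without NT naive replicate 3), 1 to 2 lower in ZNF8 minus CARHSP1, 0 to 2 lower in ZIC2 minus CARHSP1 (0 without ZIC2 knockdown replicate 1) and 2 to 5 higher in ZIC2 minus ZNF8. Replicate numbers are shared between groups, and the labels do not say whether they pair libraries. Deviations of same-numbered libraries correlated at -0.04 to 0.03 in H1 and -0.07 to 0.10 in H9. With 3 libraries per group these correlations cannot settle it. Over all genes, CARHSP1 knockdown called 1608 higher and 1544 lower, against 1044 and 1052 without knockdown replicate 2 and 1041 and 1004 without NT primed replicate 1. With the replicate block 23 of the 23 genes called with CARHSP1 knockdown kept their call and 1 was added; the block alone changed the number of called genes by less than 1.5 times in every comparison. Depth was enough to detect all 36 genes, and the SE of the lowest, CYP51A1, at group means of 1.33 to 4.05 CPM, reached 0.52 in the knockdowns. A protein comparison was planned and not run.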

Other observations

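Genes of sterol storage and uptake outside the 36 also differed with cell state. SOAT1, which esterifies cholesterol, averaged 56.4 CPM in NT naive H1 cells and 50.2 CPM in NT ectoderm cells, against 3.93 CPM in NT primed H1 cells, log2 changes of 3.83 ± 0.13 and 3.66 ± 0.14. In H9 it averaged 21.0 CPM in naive cells against 6.17 CPM in primed cells (1.76 ± 0.16). The lipoprotein receptor SCARB1 averaged 18.3 CPM in NT naive H1 and 21.1 CPM in NT ectoderm cells, against 68.7 CPM in NT primed H1 cells (-1.93 ± 0.10 and -1.73 ± 0.10). The receptor VLDLR averaged 8.68 CPM in NT naive H1 cells and 15.5 CPM in NT ectoderm cells, against 45.7 CPM in NT primed H1 cells (-2.40 ± 0.12 and -1.53 ± 0.15). ELOVL2, which elongates polyunsaturated fatty acids, averaged 56.8 CPM in NT naive H1 cells against 5.79 CPM in NT primed H1 cells (3.34 ± 0.14). All of these changes had an edgeR adjusted p of 2.11e-08 or less. The changes differed between the lines. In H9, SCARB1 averaged 66.9 CPM in naive cells against 44.7 CPM in primed cells (0.57 ± 0.11, edgeR adjusted p = 0.000268), and VLDLR 55.9 CPM against 94.5 CPM (-0.76 ± 0.09, edgeR adjusted p = 1.09e-06). The difference of the state changes, H1 minus H9, was -2.49 ± 0.16 for SCARB1, -1.63 ± 0.14 for VLDLR, 2.08 ± 0.21 for SOAT1 and 2.51 ± 0.35 for ELOVL2, each with an edgeR adjusted p of 4.54e-07 or less.

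Of 10 genes on the branches that leave the mevalonate route, 7 were higher and 3 lower in NT naive H1 cells than in NT primed H1 cells, against 35.0% and 36.1% of all genes tested, with a median log2 change of 0.51, beside -0.23 for the 8 mevalonate steps. DHDDS, an enzyme of dolichol synthesis, averaged 72.7 CPM in NT naive H1 cells against 41.9 CPM in NT primed H1 cells (0.77 ± 0.08). With CARHSP1 knockdown 2 of the same 10 genes were higher and none lower, against 10.3% and 9.87% of all genes tested.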
